A study of Zea mays with 12 samples.

Results

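In immature maize ears, 79 probe sets differed at least 2-fold between the inbred lines B73 and Mo17 and were found in the hybrids of the 2 lines closer to the higher parent than to the midparent, the arithmetic mean of the parents. They were 9.36% of the 844 probe sets that separated the parents and 0.448% of the 17621 probe sets on the array other than controls. Each array was scaled to one median, values under 12 were set to 12, and group means were geometric. A probe set was parent-different where the lower parent averaged at least 50, the parents lay at least 2-fold apart and no B73 array overlapped a Mo17 array. The position of the hybrids places their mean on a line between the parents, with -1 at the lower parent, 0 at the midparent and 1 at the higher parent. Positions from 0.5 to 1.2 were called high-parent level. The 79 were thus chosen by their own parental and mean hybrid signals, and their parental folds and mean positions are descriptions.

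The groups were the hybrid B73xMo17, the reciprocal hybrid Mo17xB73, the inbred B73 and the inbred Mo17, with 3 arrays each and 12 in all. By convention the seed parent is named first. The sample records give 3 collection days for every array. All plants were field grown, and each array held RNA pooled from 6 immature ears 3.7 to 5.4 mm long, without husks and silks, so an array value is an average over plants and over all tissues of the ear. In such bulk tissue, fewer cells of a type and less RNA per cell cannot be told apart. Signals are linear scaled intensities, which can be compared between arrays for one probe set but not between probe sets. The number of arrays limits the precision.

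An ear at this stage is a young female inflorescence made largely of meristems and early floral organs. In a hybrid both parental alleles of a gene are present in the same nucleus. A transcript whose parental alleles keep their own activities averages to the midparent, while a hybrid at the level of its higher parent is said to show high-parent expression. On an array, a sequence difference between the inbreds at the probes also changes the signal, so a probe set that separates 2 inbreds measures the transcript and its match to the probes together. The part of probe match in the values below was not tested.

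The arrays differed in brightness before scaling, with medians of 123 to 231. Arrays of one genotype correlated at 0.980 to 0.995 over probe sets (log2 signal), while B73 and Mo17 arrays correlated at 0.923 to 0.944. B73 replicate 2 stood apart in its dim signals: its 1st percentile as deposited was 3.90, against 0.455 to 0.647 on the other 11 arrays. Its 25th percentile was 42.5, against 16.5 to 24.2. After scaling, 14.5% of its probe sets were under the floor, against 17.9% to 22.4%. Of the tissue lists, 11 of 12 immature ear markers passed the filter on dim probe sets, kn1, the homeobox gene of meristems, among them, and 1 was at the floor on every array. The filter was passed by 8 of 11 probe sets of husk and leaf markers, 3 of 7 of pollen and anther markers and 6 of 17 of endosperm markers. Of the immature ear markers 4 of 12 (33.3%) were parent-different and 1 of them, zag2, was a member. None of the 35 probe sets of the other markers was parent-different. Of all probe sets on the array other than controls, 4.79% were parent-different, and all 844 of these passed the filter. Many of the 35 did not pass it, and the lists are small. Whether ear markers differed between the parents more often than the other markers was not tested. Summed husk and leaf signal was 1660 to 2032 in B73xMo17, 1769 to 1858 in Mo17xB73, 1444 to 1981 in B73 and 1984 to 2218 in Mo17.

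The high-parent class lay at one end of a distribution centred near the midparent. The median position was 0.668 over the 79, with quartiles of 0.567 and 0.783 and a range of 0.503 to 1.19, against -0.03 over all 844 parent-different probe sets. A low-parent class, from -1.2 to -0.5, held 78 probe sets, the range between the classes held 679, and 6 lay above the high-parent limit and 2 below the low-parent one. In limma fits of the contrasts the rule used, B73 and Mo17 differed for 77 members, against 42.7% of all probe sets tested. The mean hybrid lay above the midparent for 29 members, against 0.638% of all, and below it for 0, against 0.755%; these calls follow from the choice. Within the class, 54 were under 0.75 and 18 between 0.75 and 1, so that most lay nearer to its lower limit than to the higher parent. The mean hybrid exceeded the higher parent for the remaining 7. Just inside the lower limit were Zm.18306.1.A1_at at 0.503 and Zm.18111.1.S1_at at 0.504, and just outside it Zm.4862.1.S1_a_at at 0.499 and Zm.4144.1.S1_at at 0.493. Near the upper limit, Zm.18026.1.A1_at at 1.19 and Zm.7444.1.A1_at at 1.17 were inside, and Zm.10180.1.S1_at at 1.33 and Zm.1920.2.A1_x_at at 1.60 outside. The fold limit separated Zm.19119.1.A1_at and Zm.9294.1.A1_at, both 2.02-fold, from Zm.3529.2.S1_at at 1.99-fold and Zm.14128.1.A1_at at 1.98-fold. The level limit separated Zm.4527.1.A1_at and Zm.3714.2.A1_at, with lower-parent means of 53.7 and 54.5, from Zm.1611.1.A1_at and Zm.6779.2.S1_s_at, with 49.8 and 48.5.

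**Figure D1:**
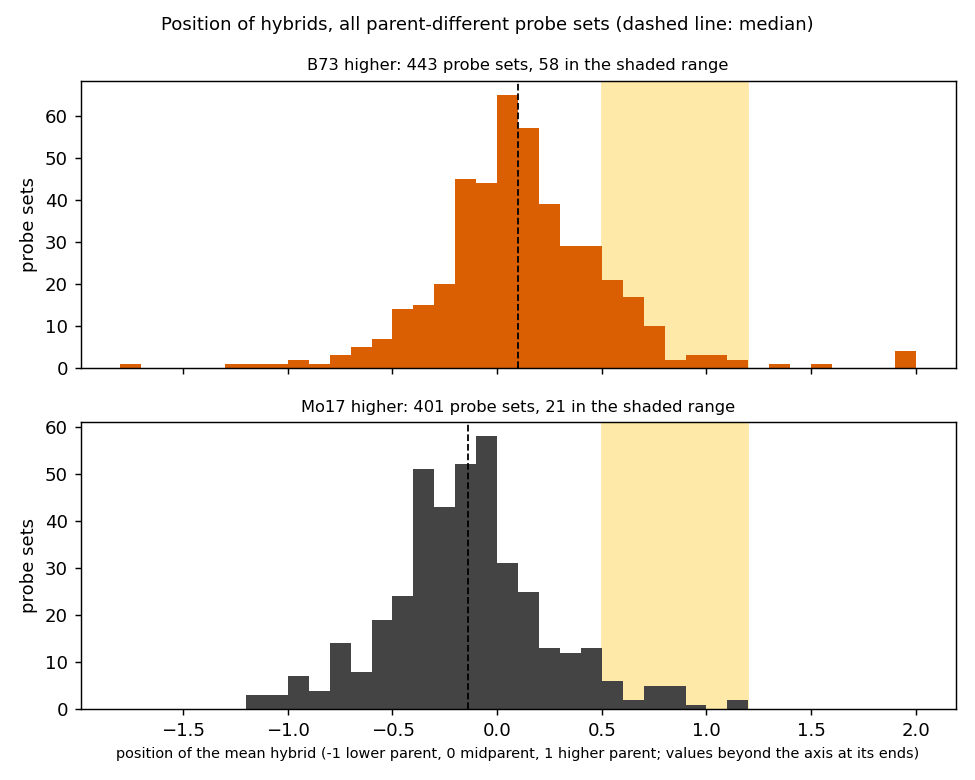
Number of parent-different probe sets (vertical axis) by position of the mean hybrid between its parents (horizontal axis, no unit, 0 = midparent, 1 = higher parent), in one panel for B73 higher and one for Mo17 higher, with the high-parent range shaded and the median dashed. The 58 and 21 members form the right flanks of distributions with medians of 0.10 and -0.14.

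B73 was the higher parent of 58 of the 79, or 73.4%, while it was the higher parent of 52.5% of all 844, and Mo17 was the higher parent of 21. In the low-parent class the order was turned, with 20 probe sets higher in B73 and 58 higher in Mo17. Put together, 116 parent-different probe sets had hybrids near the B73 level and 41 near the Mo17 level. The median position was 0.10 over the 443 parent-different probe sets higher in B73 and -0.14 over the 401 higher in Mo17. The split depended on array scaling. In the signals as deposited, in which B73 arrays had medians of 149 to 231 and Mo17 arrays 123 to 157, 34 lay near the B73 level and 107 near the Mo17 level, and B73 was the higher parent of 16 of 35 members. With scaling to the 75th percentile the counts were 103 near B73 and 52 near Mo17, and with quantile normalization 95 and 56. Without B73 replicate 1 the counts were 117 near B73 and 62 near Mo17.

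Large parental differences were present in the class. The median parental fold was 2.75 over the members, with a range of 2.02 to 29.7, and 2.62 over all parent-different probe sets. A fold of at least 5 was seen for 20 members (25.3%) and for 126 of the 844 (14.9%). A fold between 2 and 3 was seen for 44 members (55.7%) and for 523 of the 844 (62.0%). Most members, 71, had the plain suffix of a probe set designed for one transcript, 3 had the suffix _s_ for probes shared by several transcripts, 4 had _x_ for probes that may cross-hybridise, and 1 had _a_ for transcripts of one gene. That last kind made up 1.27% of members and 8.29% of all parent-different probe sets. A gene symbol was given for 7 members (8.86%) and for 73 of the 844 (8.65%), so the other 72 members are known here by their array identifiers.

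The 7 named members were tub6, ANT1 and gst11, higher in B73, and pep7, sir, zag2 and sxd1, higher in Mo17. The largest parental difference among them was that of tub6, a gene for beta-tubulin, the subunit that pairs with alpha-tubulin in microtubules. Its probe set Zm.7750.2.S1_at gave 2366, 2374 and 2189 in B73xMo17, 2403, 2476 and 2630 in Mo17xB73, 2880, 2312 and 2885 in B73 and 396, 390 and 378 in Mo17. Every hybrid array lay far above the Mo17 arrays and within or just below the B73 range. The parents were 6.90-fold apart and the position was 0.761.

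ANT1 encodes the adenine nucleotide translocator of the inner mitochondrial membrane, which exchanges ADP for ATP. Its signal was 2927, 3636 and 3847 in B73xMo17, 3599, 3451 and 3549 in Mo17xB73, 4067, 2842 and 4147 in B73 and 1467, 1752 and 1829 in Mo17. All 6 hybrid arrays fell within the span of the B73 arrays, which was set at its low end by B73 replicate 2. The fold was 2.17 and the position 0.854, and without that array the position was 0.492, outside the class.

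The third named member higher in B73, gst11, encodes a glutathione transferase, an enzyme that attaches glutathione to reactive compounds. Its arrays gave 462, 417 and 426 in B73xMo17, 452, 493 and 407 in Mo17xB73, 507, 476 and 519 in B73 and 157, 280 and 341 in Mo17. Of the hybrid arrays, 1 reached the B73 range and the others lay between the parents, with a fold of 2.03 and a position of 0.538. It stayed in the class in 7 of the 12 sets that left out a single array.

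Among the members higher in Mo17, pep7 is annotated as a phosphoenolpyruvate carboxylase gene, whose enzyme adds carbon dioxide to phosphoenolpyruvate to make oxaloacetate. Zm.800.2.A1_at gave 290, 270 and 311 in B73xMo17, 277, 237 and 350 in Mo17xB73, 62.7, 73.9 and 51.4 in B73 and 263, 330 and 338 in Mo17. The hybrid and Mo17 arrays overlapped and the B73 arrays lay well below both. The fold was 4.97 and the position 0.827, and the probe set stayed in the class in all 12 leave-one-array-out sets, in the 3 other scalings and as deposited.

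The AGAMOUS-like MADS-box gene zag2, known for its expression in carpels and ovules, was the only floral regulator of its list in the class. Its signal was 355, 379 and 394 in B73xMo17, 340, 359 and 384 in Mo17xB73, 168, 161 and 186 in B73 and 422, 344 and 422 in Mo17. The hybrids lay around the dimmest Mo17 array, below the other Mo17 arrays and above every B73 array, at a fold of 2.30 and a position of 0.763. Of the other 19 probe sets of the list, si1 and zmm2 were parent-different, each with a position of -0.39.

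The gene sir encodes sulfite reductase, which reduces sulfite to sulfide in plastids during sulfate assimilation. Its member probe set Zm.227.1.S2_s_at gave 290, 313 and 355 in B73xMo17, 378, 475 and 307 in Mo17xB73, 159, 199 and 123 in B73 and 349, 404 and 392 in Mo17. The B73 arrays were separate and the highest array of all was a Mo17xB73 one. The fold was 2.42 and the position 0.720, made up of 0.439 in B73xMo17 and 1.00 in Mo17xB73.

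For sxd1, which encodes tocopherol cyclase and is known from a mutant with blocked plasmodesmata in leaf veins, signals were low. They were 118, 127 and 149 in B73xMo17, 171, 161 and 164 in Mo17xB73, 115, 38.3 and 101 in B73 and 193, 143 and 145 in Mo17. The B73 mean rested on replicate 2, and the B73xMo17 arrays lay just above the other B73 arrays. The fold was 2.08 and the position 0.733, with 0.315 in B73xMo17 and 1.15 in Mo17xB73. Without B73 replicate 2 or without Mo17 replicate 1 it left the class.

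**Figure D2:**
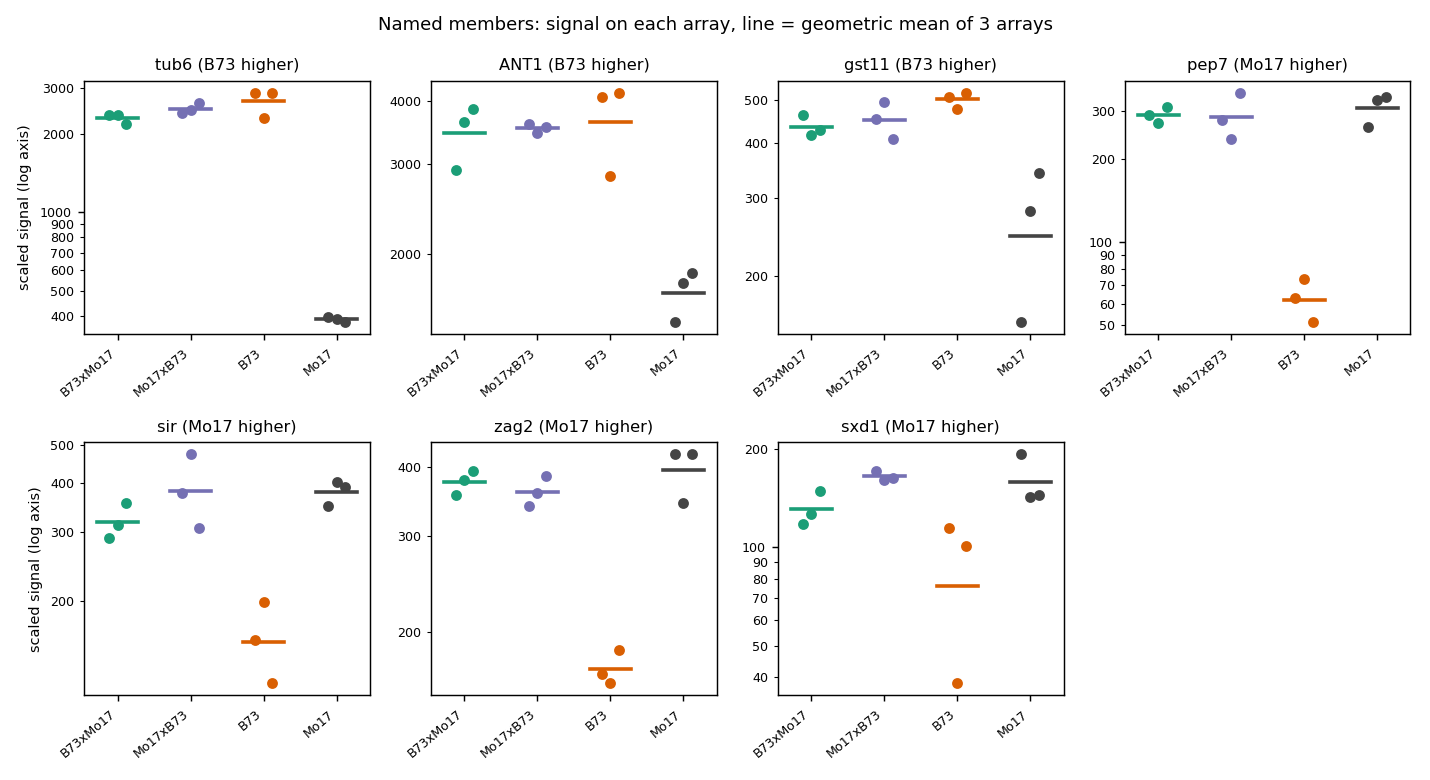
Scaled signal on each array (vertical log axis) of the 7 members with a gene symbol, by genotype from B73xMo17 and Mo17xB73 to B73 and Mo17; points are arrays and lines are geometric means of 3 arrays. For tub6 the hybrids lie between 2189 and 2630, and Mo17 between 378 and 396.

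Among members without a symbol, the largest fold with B73 higher was 29.7, for Zm.3714.2.A1_at. It gave 1275, 1229 and 1271 in B73xMo17, 1258, 1388 and 1320 in Mo17xB73, 1755, 1501 and 1619 in B73 and 52.8, 66.8 and 46.0 in Mo17. All hybrid arrays lay below all B73 arrays, at a position of 0.576 with an SD of 0.0717 over the 6 hybrid arrays. Zm.15874.1.A1_at was 27.6-fold higher in B73 with a position of 0.698, and Zm.14471.2.A1_at 14.2-fold with 0.623. Zm.8864.1.A1_at was 9.95-fold higher in B73 with a position of 1.05, made up of 0.526 in B73xMo17 and 1.58 in Mo17xB73. Its SD over the 6 hybrid arrays was 0.924. Zm.3141.1.A1_at and Zm.15359.1.S1_at had folds of 9.83 and 8.34 and positions of 0.605 and 0.554.

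The largest fold with Mo17 higher was 23.9, for ZmAffx.64.1.A1_at. Its signal was 5770, 5283 and 5451 in B73xMo17, 5148, 5144 and 5939 in Mo17xB73, 285, 345 and 235 in B73 and 6604, 6724 and 7127 in Mo17. The hybrid arrays filled a band below the Mo17 arrays, at a position of 0.581 with an SD of 0.102. Zm.18026.1.A1_at, Zm.4527.1.A1_at and Zm.6182.1.S1_at had folds of 8.48, 8.17 and 6.41 and positions of 1.19, 0.835 and 0.526. Zm.6721.5.A1_at and Zm.783.1.S1_at followed with folds of 5.07 and 4.21 and positions of 0.824 and 0.579.

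Over single arrays, the class ranged from tight to very loose. All 6 hybrid arrays lay above the midparent for 71 members and above every array of the lower parent for 77. All 6 lay below every array of the higher parent for 12, at least 1 reached the higher parent's arrays for 67, and for none did all 6 exceed them. The SD of the position over the 6 hybrid arrays had a median of 0.301 and ran from 0.0612 to 2.00. It was 0.342 at the median for the 44 members with a fold under 3, and 0.207 for the 20 with a fold of at least 5.

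The tightest and loosest members, chosen after their values were seen, show that span. Zm.14760.1.S1_at gave 499, 537 and 529 in B73xMo17, 531, 521 and 530 in Mo17xB73, 683, 562 and 643 in B73 and 167, 158 and 217 in Mo17. Zm.7156.2.S1_at gave 253, 68.7 and 112 in B73xMo17, 277, 81.0 and 161 in Mo17xB73, 72.2, 77.9 and 56.3 in B73 and 379, 107 and 95.1 in Mo17. In Zm.7156.2.S1_at replicate 1 was the brightest array of both hybrids and of Mo17, 3 of the 6 hybrid arrays were at or below the midparent, and the mean position of 0.603 was the average of arrays that did not agree. In Zm.7081.5.S1_at, with a position of 0.510 and an SD of 1.95, replicate 2 was the dimmest array of all 4 genotypes.

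**Figure D3:**
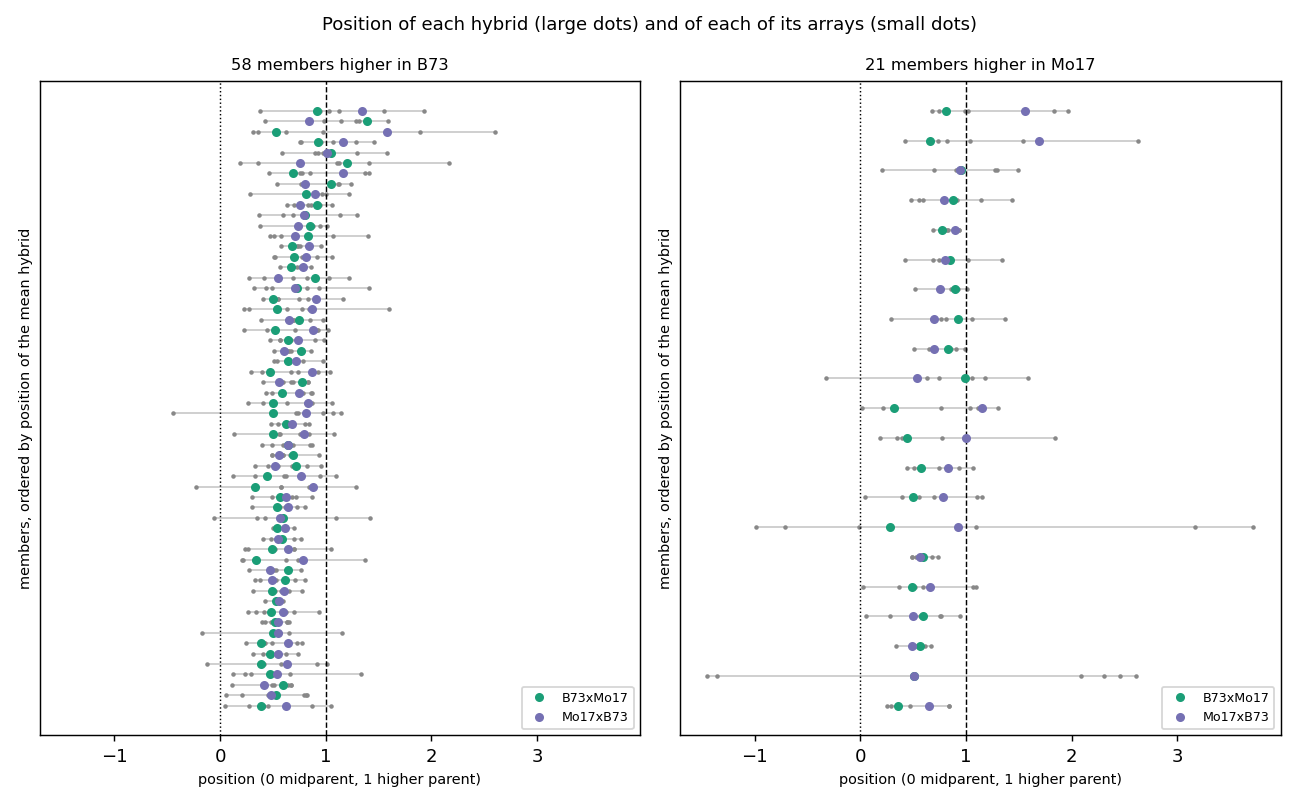
Position (horizontal axis, 0 = midparent, 1 = higher parent) of each of the 79 members, ordered by mean position, with 58 higher in B73 and 21 higher in Mo17; large dots are B73xMo17 and Mo17xB73 and small dots are single hybrid arrays. The hybrids lie apart for some members, such as sxd1 at 0.315 in B73xMo17 and 1.15 in Mo17xB73, and the longest line is that of Zm.7156.2.S1_at.

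The hybrid mean exceeded the higher parent for 7 members, 5 higher in B73 and 2 higher in Mo17. For 1 of them, Zm.14513.9.S1_at, named because both hybrids exceeded the parent, signals were 5147, 4662 and 4754 in B73xMo17, 4282, 4696 and 5498 in Mo17xB73, 5236, 4117 and 5086 in B73 and 2278, 2509 and 2197 in Mo17. The hybrid arrays overlapped the B73 arrays, with 1 Mo17xB73 array above all of them, and the position was 1.03.

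The 2 hybrids carry the same nuclear genomes and differ in the seed parent, and the rule averaged them, so their difference was the one contrast the choice of members did not use. Both hybrids were in the range from 0.5 to 1.2 for 47 members and both at 0.5 or more for 53. For the other 26, 1 hybrid was under 0.5, in 20 cases B73xMo17 and in 6 cases Mo17xB73, and in 6 members 1 hybrid exceeded 1.2. The median position was 0.598 in B73xMo17 and 0.720 in Mo17xB73, against -0.017 and -0.041 over all 844 parent-different probe sets. That members exceed all 844 in each hybrid follows from the choice, and only the difference between the hybrids does not. All 79 members were among the 11126 probe sets tested with limma. None passed at a Benjamini-Hochberg adjusted p under 0.05 (smallest adjusted p = 0.9998), against 0.0% of all probe sets tested. At an unadjusted p under 0.05 there were 3 members (3.80%), against 2.01% of all probe sets tested and 31 of the 844 parent-different ones (3.67%).

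All 3 were higher in Mo17xB73. Zm.7444.1.A1_at differed by -0.37 ± 0.12 (log2 of B73xMo17 over Mo17xB73, SE), with 460, 422 and 471 in B73xMo17 and 561, 698 and 499 in Mo17xB73. The arrays of the 2 hybrids did not overlap. Zm.8864.1.A1_at differed by -0.68 ± 0.27, with 1305, 942 and 912 against 2269, 1848 and 1097, and its arrays overlapped. Zm.18026.1.A1_at differed by -0.44 ± 0.21, with 768, 654 and 675 against 1084, 1040 and 757. These 3 had the mean hybrid above the higher parent, at positions of 1.17, 1.05 and 1.19.

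The arrays of the 2 hybrids did not overlap for 5 members (6.33%), against 8.9% of all probe sets tested. The reciprocal difference had a median standard error of 0.16 on the log2 scale over members and ran from -0.68 to 0.27. It was negative, with Mo17xB73 higher, for 47 members and positive for 32, against 407 and 437 of all 844. Taken toward the hybrid whose seed parent was the higher parent, its median was -0.03 over members and 0.00 over all parent-different probe sets. The median over members changed sign, to 0.03, without replicate 2 of every genotype, and was -0.00248 without B73 replicate 2 alone. That hybrid was the higher one for 33 of 79 members and for 426 of 844. Among the named genes, sxd1 and sir had the largest differences, of -0.34 and -0.26, and zag2 and pep7 the only positive ones, of 0.06 and 0.03. None of the 7 passed (limma adjusted p = 0.9998 for each).

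The position was also read in arrays that had no part in choosing the members. With the replicates of 2 numbers used for the rule and the 4 arrays of the remaining number held out, 90, 85 and 70 probe sets were chosen as replicate 1, 2 and 3 was held out. Their median position when chosen was 0.668, 0.672 and 0.663. In the held-out arrays it was 0.417, 0.526 and 0.586, where all parent-different probe sets chosen the same way had 0.00, 0.01 and -0.05. The held-out position was above 0 for 78 of the 90, 65 of the 83 whose parents kept their order, and 64 of the 70. Over all parent-different probe sets chosen the same way it was above 0 for 49.8%, 51.2% and 46.3%. It reached 0.5 for 33, 43 and 41 of the chosen members (36.7%, 51.8% and 58.6%), against 13.7%, 20.5% and 16.3% of all parent-different ones. The low-parent class chosen the same way had held-out medians of -0.40, -0.54 and -0.72.

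**Figure D4:**
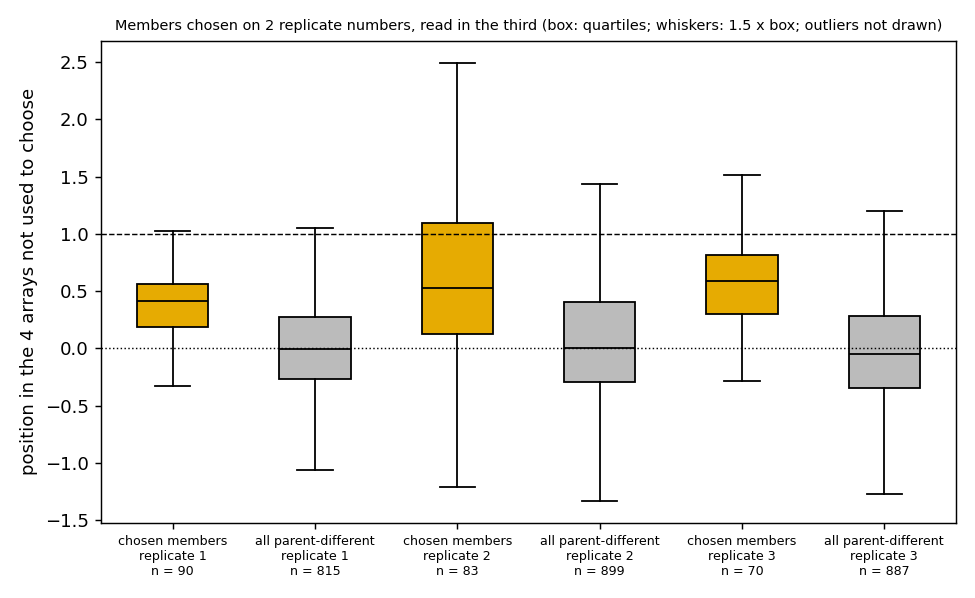
Position in the 4 held-out arrays (vertical axis, 0 = midparent, 1 = higher parent) of the probe sets chosen as members on the other arrays and of all parent-different ones, by the replicate held out; boxes are quartiles with the median and whiskers reach 1.5 box lengths. Medians of the chosen members are 0.417, 0.526 and 0.586, under the 0.663 to 0.672 at which they were chosen.

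When members were chosen with a single hybrid and read in the other, the parental arrays were shared. The same parental means set the position in both hybrids, so part of the agreement below was built in. The 80 chosen with B73xMo17 had a median of 0.619 in Mo17xB73, and the 85 chosen with Mo17xB73 had a median of 0.528 in B73xMo17. All parent-different probe sets had medians of -0.04 and -0.02 in the same arrays. Of the chosen, 53 of 80 and 49 of 85 reached 0.5 in the other hybrid, against 95 and 86 of all 844 parent-different probe sets.

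Single arrays decided part of the membership. When each of the 12 arrays was left out in turn, 70 to 96 probe sets met the rule, and 29 of the 79 met it every time. Of those 29, 28 also met it under the 3 other scalings, 19 higher in B73 and 9 higher in Mo17, and 4 of these also met it as deposited: ZmAffx.64.1.A1_at, Zm.6721.5.A1_at, pep7 and Zm.17459.1.A1_at. The array whose loss cost most members was B73 replicate 2, without which 25 of the 79 left. This array was the lowest of the 3 B73 arrays for 37 of the 58 members higher in B73 (63.8%) and for 266 of all 443 such parent-different probe sets (60.0%). Mo17 replicate 1 followed, with 18 members lost. Without B73 replicate 2 the rule chose 71 probe sets, of which 51 were higher in B73.

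A gene on this array is often covered by several probe sets, which the array's identifiers group in clusters. The 79 members fell in 76 clusters. Of the members, 42 were alone in their cluster, and the 37 others shared theirs with 91 probe sets outside the class. Of those 91, 82 had parents less than 2-fold apart and 5 were parent-different, all between the classes with positions of 0.178 to 0.483. The lower parent was under 50 for 20 of the 91, so these could not be parent-different by the rule. Among them, Zm.14497.1.A1_at (153-fold) and Zm.5077.1.A1_at (2.99-fold) were higher in B73, at positions of 0.887 and 1.84. Zm.14497.4.A1_at (255-fold) and ZmAffx.64.1.S1_at (16.4-fold) were higher in Mo17, at 0.339 and 0.625. The B73 mean of both was at the floor of 12, and the Mo17 mean of Zm.5077.1.A1_at was 12.2. These folds therefore depend on the floor. Counted by pairs, 11 of 109 cluster mates of members were parent-different (10.1%), against 92 of 855 for all parent-different probe sets (10.8%). The higher parent was the same in 6 of the 11 pairs and the other one in 5, against 68 and 24 of the 92. In these counts, members sharing a cluster with each other made a pair in each direction. Of the 5 parent-different mates outside the class, 2 had the same higher parent as the member and 3 the other one.

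The probe sets of tub6 gave different parental orders. The member was 6.90-fold higher in B73. Zm.7750.2.S1_x_at averaged 2140 in B73xMo17, 2284 in Mo17xB73, 2205 in B73 and 1449 in Mo17, a B73 minus Mo17 difference of 0.61 ± 0.12 (log2, SE, limma adjusted p = 0.000778). Zm.7750.2.S1_a_at averaged 2004, 2171, 1747 and 2127 in the same order, a difference of -0.28 ± 0.11 (limma adjusted p = 0.0465). Zm.7750.1.S1_at averaged 1119 in B73xMo17, 1341 in Mo17xB73, 725 in B73 and 1330 in Mo17, a difference of -0.88 ± 0.16 (limma adjusted p = 0.000571). Thus B73 was the higher parent by 2 probe sets of tub6 and Mo17 by the other 2. Parental differences passed for 42.7% of all probe sets tested.

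For sir, Zm.227.1.S2_x_at averaged 89.5 in B73xMo17, 154 in Mo17xB73, 55.8 in B73 and 168 in Mo17. It was parent-different in the same direction as the member (-1.59 ± 0.29, limma adjusted p = 0.000398) with a position of 0.178. Zm.227.1.S1_at of the same gene averaged 729 in B73xMo17, 600 in Mo17xB73, 735 in B73 and 752 in Mo17, and its parents did not pass (-0.03 ± 0.17, limma adjusted p = 0.889). In the pep7 cluster, Zm.800.1.S1_at averaged 1275, 1276, 1392 and 1309 in the same genotypes, a difference of 0.09 ± 0.11 (limma adjusted p = 0.556), while the member was 4.97-fold apart.

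In 3 clusters more than 1 probe set was a member. Zm.14471.2.A1_at and Zm.14471.2.A1_x_at were both higher in B73, 14.2-fold and 2.56-fold, with positions of 0.623 and 0.798. Zm.2478.1.A1_at and Zm.2478.2.A1_at were higher in B73 by 3.62-fold and 3.58-fold, with positions of 0.625 and 0.687. The members of the Zm.6721 cluster had opposite higher parents. Zm.6721.5.A1_at gave 2206, 2252 and 2269 in B73xMo17, 1892, 2112 and 2356 in Mo17xB73, 521, 545 and 347 in B73 and 2177, 2315 and 2550 in Mo17. Zm.6721.8.S1_at gave 1983, 2145 and 2038 in B73xMo17, 1884, 2339 and 2220 in Mo17xB73, 2905, 2423 and 2534 in B73 and 484, 535 and 493 in Mo17. The hybrid arrays overlapped or fell below the Mo17 arrays in Zm.6721.5.A1_at and lay below all B73 arrays in Zm.6721.8.S1_at, at positions of 0.824 and 0.510.

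**Figure D5:**
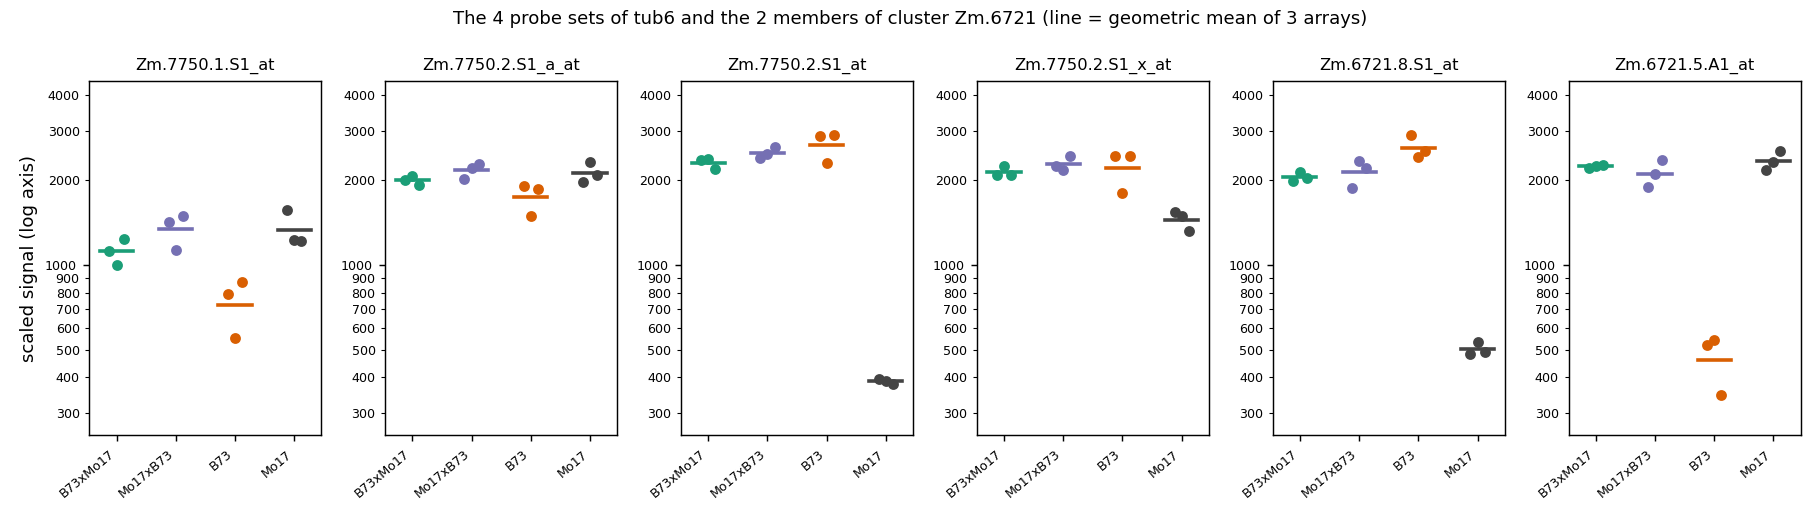
Scaled signal on each array (vertical log axis) of the 4 tub6 probe sets and the 2 members of the Zm.6721 cluster, by genotype from the hybrids to B73 and Mo17; points are arrays and lines geometric means. B73 is the higher parent in the member Zm.7750.2.S1_at (2678 against 388 in Mo17) and in Zm.7750.2.S1_x_at (2205 against 1449). Mo17 is the higher parent in Zm.7750.2.S1_a_at (2127 against 1747 in B73) and Zm.7750.1.S1_at (1330 against 725). The 2 Zm.6721 members have opposite lower parents.

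Of 25 probe sets tested that share a gene or cluster with a named member and are not members, 11 passed between B73 and Mo17 (limma, adjusted p under 0.05). This was near the share over all probe sets tested, 42.7%. Zm.3714.1.A1_at differed by -0.59 ± 0.09 (log2 of B73 over Mo17, limma adjusted p = 0.000117), opposite to Zm.3714.2.A1_at. Zm.4527.1.A1_s_at differed by 1.04 ± 0.10 (limma adjusted p = 5.19e-07), opposite to Zm.4527.1.A1_at. Zm.8864.1.A1_s_at averaged 334 in B73xMo17, 561 in Mo17xB73, 346 in B73 and 315 in Mo17, and its parental difference of 0.13 ± 0.27 did not pass (limma adjusted p = 0.716). The mate of ZmAffx.64.1.A1_at, ZmAffx.64.1.S1_at, averaged 155 in B73xMo17, 170 in Mo17xB73 and 197 in Mo17, and its B73 mean was at the floor of 12.

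By function, 5 of the 7 named members were in lists of related genes, 1 in each of 5 lists, and sir and sxd1 were in none. Over all probe sets, 4.79% were parent-different. All 844 were among the 11126 that passed the filter on dim probe sets, and the lists differed in how many passed. It was passed by 17 of 20 MADS-box, 15 of 35 glutathione transferase and 32 of 33 translation probe sets. In the MADS-box list of zag2, 3 of 20 were parent-different (15%). Of the glutathione transferase list, 6 of 35 probe sets were parent-different (17.1%): gst11 was in the class, gst5 at -1.16 was in the low-parent class, and gst13 at 0.445 and gst12, gst28 and gst38 lay between. In the cytoskeleton list, 1 of 26 was parent-different (3.85%), and it was the tub6 member. In the list of glycolysis, fermentation and C4 acids it was 1 of 34 (2.94%), the pep7 member. Of 22 mitochondrial and antioxidant probe sets 2 were parent-different (9.09%), ANT1 and CAT3, a catalase gene at -0.57.

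No other functional list had a member in the class. The heat shock list had 2 of 7 parent-different (28.6%), hsp101 and hsp18c, both in the low-parent class at -0.77 and -0.75. Of 33 translation probe sets 4 were parent-different (12.1%), all between the classes, among them rpl39 at 0.406, elfa2 at 0.327 and eif7 at 0.111. The cell wall list had 3 of 27 (11.1%) and the inflorescence architecture list 2 of 19 (10.5%), gt1 at 0.05 and yab9 at 0.182, all between the classes. The chromatin list had 1 of 57 parent-different (1.75%), the hormone list 2 of 30 (6.67%) and the defence list 2 of 19 (10.5%). The amino acid and nucleotide list had 2 of 18 (11.1%) and the starch and sucrose list 1 of 26 (3.85%). No probe set of the aquaporin list (13) or the cell cycle list (18) was parent-different.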

How the data were processed

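The deposited values were intensities, 1 linear signal per probe set and array made by the authors with MAS5, per the submitters' processing notes (version and scaling target: not given in the sources used here). No scanner output was used here. Controls (113 of 17734 probe sets) were left out. Each array was scaled to the median of the array medians over the other 17621, and the floor was 12. Of these, 1452 had 1 gene in the platform annotation, 1 had several and 16168 none. Names come from symbols and synonyms of the RefSeq table of Zm-B73-REFERENCE-NAM-5.0 (1377 matched).

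Tests used limma 3.58.1 in R 4.3.3 on log2 signal (one mean per genotype, 12 arrays, 8 residual degrees of freedom, eBayes with trend), over 11126 probe sets that exceeded the 40th percentile of the array on 3 or more arrays, with Benjamini-Hochberg adjustment. The position is (mean of both hybrids − midparent) over (higher parent − midparent). Both scripts were tested on simulated data. Replicate numbers were not used to pair arrays, since not every same-numbered pair of the reciprocal hybrids correlated above 0.1 and the labels tie no number to a day or batch. Replicates are labelled biological. The members, lists and tests were chosen with earlier results of these data known. Named were all members with a symbol, the 6 largest folds each way among the others, the 2 probe sets on each side of the position limits, and members sharing a cluster. Other scalings, floors, limits and left-out arrays were tried.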

Additional observations from a re-analysis of the deposited data

How the results depend on the processing

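The class size depended on the limits: 179 probe sets with the position taken on the log2 scale, 35 with parents at least 3-fold apart, 52 with positions from 0.6, and 47 with both hybrids in the range, against 79. As deposited, 35 met the rule, 13 of them among the 79, with 16 higher in B73, and 34 parent-different probe sets lay near the B73 level and 107 near the Mo17 level, counts chosen after seeing the data; the direction of that split turns with the scaling. Leaving out single arrays or whole replicates gave 66 to 96 members, 49 to 68 higher in B73, 102 to 146 near the B73 level and 37 to 62 near the Mo17 level, the highest without B73 replicate 1. No member passed the reciprocal contrast under any alternative run with limma (0 to 7 at an unadjusted p under 0.05). Over all probe sets the count was 0, except 6 as deposited, 1 without B73xMo17 replicate 2 and 1 without replicate 3 of every genotype. The median log2 reciprocal difference toward the high parent over members ran from -0.0432 to 0.0278 over the left-out arrays and replicates, the highest without replicate 2 of every genotype and -0.00248 without B73 replicate 2, against -0.0277.

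Same-numbered arrays correlated at -0.0894 to 0.459 in their deviations from the group means (18 pairs, median 0.150), against a median of -0.0568 for different numbers. In the reciprocal hybrids the medians were 0.357 for same and -0.0745 for different numbers, the lowest same-numbered pair was at -0.0420, and 4 of 6 hybrid arrays correlated best with their own number, a hint from the data, not the design. With replicate number as a block, 0 members and 0 of all probe sets passed the reciprocal contrast (3 and 266 unadjusted). Of 546 recomputed positions of named probe sets, 502 moved by less than the spread between arrays, 44 by more, and 0 changed sign. For zag2 the position ran to 1.21 as deposited and 0.556 without replicate 2 of every genotype. With 3 arrays per genotype, positions of members with small folds are the least precise.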
